A study of Homo sapiens with 16 samples.

Results

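NEAT1 is the long non-coding RNA around which paraspeckles, protein-rich bodies of the nucleus, are built. The gene makes a short polyadenylated isoform and a long isoform that share their start, and the long isoform is the one that carries the paraspeckle scaffold. Argonaute 2 (Ago2) is the protein that holds a microRNA and is guided by the microRNA's seed, the stretch near its 5′ end, to matching transcripts. Hippuristanol blocks eIF4A, an RNA helicase that prepares mRNAs for the ribosome. NEAT1 is not translated.

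The NEAT1 peaks are all rows of the table of Ago2 CLIP peaks that carry the gene name NEAT1. There were 65, of 4768 rows in all, and no 2 of them had the same values, so all 65 stand among the 4718 peaks with distinct values. In CLIP, ultraviolet light ties a protein to the RNA in contact with it, the protein is pulled down with an antibody, and the RNA that comes with it is sequenced. Adherent 293S cells, an established line from human embryonic kidney, were either untreated or given 1 µM hippuristanol for 30 min, with 2 cultures of each kind. Each culture was split for CLIP with Ago2 antibodies from 3 manufacturers, which makes 12 CLIP libraries, and for RNA-seq, whose values were not analysed here. The table gives each peak a log average over both treatments and a log ratio, hippuristanol over untreated. Neither is given per library, and how the libraries were combined is not stated. The spread between cultures, the depth of the libraries and the base of the logarithm are not in the table. All values below are therefore in the authors' log units, without replicate error, test or p-value, and 1 peak above or below 0 has no check of its own.

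All 65 peaks lay within 3.7 kb counted from the first peak, which is taken here as the stretch of the short isoform. They ran from 65190280 to 65193975 on the plus strand of chromosome 11 (hg19), a span of 3.695 kb, and all carried the RefSeq identifier NR_028272 and the class of non-coding exon. Measured from the first base of the first peak, 65 peaks ended inside the first 3.7 kb and 0 beyond it. GENCODE 29 pairs that identifier with a NEAT1 transcript of 3524 nt, shorter than the span of the peaks, and gives the long isoform 22743 nt. Between 3.7 kb and the length of the long isoform the table lists 0 peaks of any gene, and the next peak on the chromosome, in MALAT1, starts 72.547 kb after the last NEAT1 peak. Every row of the table has an exon of an annotated gene, and no label or header says whether the authors' annotation held the long isoform. The 0 peaks of the long-only part therefore do not describe Ago2 on that part, and no comparison of the isoforms could be made.

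The sequence of the peaks themselves is not shown, because no hg19 sequence was used. The microRNA side can be shown from RefSeq (GRCh38.p14). The following mature microRNAs, with the seed (bases 2 to 8) in capitals, stand for 5 widely studied families, and they are given because the shared part of NEAT1 holds none of their 7-nt seed matches.
let-7a-5p: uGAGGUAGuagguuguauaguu
miR-16-5p: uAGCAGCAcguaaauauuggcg
miR-17-5p: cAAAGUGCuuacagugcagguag
miR-19b-3p: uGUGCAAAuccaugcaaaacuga
miR-92a-3p: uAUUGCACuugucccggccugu
The matches searched on the transcript strand were CTACCTC for let-7, TGCTGCT for miR-15/16, GCACTTT for miR-17, TTTGCAC for miR-19 and GTGCAAT for miR-92. In the long NEAT1 transcript of GENCODE 29 (GRCh38), the first 3.7 kb held 0 of these matches and the remaining 19.043 kb held 9. The 5 families are shown for that 0, so the 0 is not a result about NEAT1. Across 9125 transcripts of at least 3.7 kb, 1 per gene name, the first 3.7 kb held a match to let-7 in 23.6%, to miR-15/16 in 51.7%, to miR-17 in 30.7%, to miR-19 in 21.2% and to miR-92 in 16.7%, and 17.2% held none of the 5. The GC content was 48.4% in the first 3.7 kb of NEAT1 and 43.2% in the rest, against a median of 48.0% over the first 3.7 kb of the 9125 transcripts.

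A wider search took in 24 families whose microRNA the RefSeq table holds, of 25 listed. The first 3.7 kb of NEAT1 held 5 matches, from 4 families, or 1.35 per kb, and the rest held 49 matches, from 18 families, or 2.57 per kb. Among the 9125 transcripts the median was 8 matches in the first 3.7 kb, and 24.2% had as many as NEAT1 or fewer. The wider search includes the 5 families above, which are shown for their 0 matches in this stretch. The lower count in the first 3.7 kb is thus in part set by that choice. The 5 matches in the first 3.7 kb of NEAT1 are shown in capitals within 30 bases of the transcript. They are the exact 7-nt matches found there in the wider search. Shorter or offset matches were not searched.
miR-181, transcript positions 1083 to 1089: gagggtggggagTGAATGTgcacccttggg
miR-103, transcript positions 1528 to 1534: aaaggttttcagATGCTGCatcttctaaat
miR-9, transcript positions 2508 to 2514: agttttccgagaACCAAAGggaggggtgtg
miR-27, transcript positions 2726 to 2732: ggttgatttgaaACTGTGAaggtgtgattt
miR-181, transcript positions 3144 to 3150: gtatttttaattTGAATGTttgtgcttttt
A TGAATGT match to miR-181 was present in the first 3.7 kb of 29.5% of the transcripts, and at least 2 of them, as in NEAT1, in 7.55%. The shares with a match were 32.2% for ATGCTGC (miR-103), 29.9% for ACCAAAG (miR-9) and 32.8% for ACTGTGA (miR-27). Transcript positions count from 1 at the start of the GRCh38 transcript and peak positions from the first base of the first peak in hg19. An ATGCTGC match of miR-103 can overlap a TGCTGCT match of miR-15/16, but the first 3.7 kb of NEAT1 held 0 TGCTGCT matches. The 2 sets of positions were not aligned, so whether a match lies in a peak was not tested. The microRNAs of these cells were not analysed here, and a match is not a bound site.

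The peaks lay densely over this stretch of NEAT1. They covered 3118 of the 3695 nt between the first and the last base, or 84.4%, at 17.6 peaks per kb. Of the 64 pairs of neighbours, 24 overlapped, and in 18 the next peak began 1 nt after the end of the one before. When overlapping peaks were joined, 41 separate blocks remained, the fullest with 6 peaks. The longest stretch without a peak, 106 nt, lay between 3102 and 3208 nt from the first base, and the next longest, 69 nt, between 2908 and 2977 nt. The median length was 50 nt, between 20 and 160 nt, against a median of 39 nt over all 4718 peaks, and the NEAT1 peak of 160 nt was the longest of the table.

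MALAT1, the long RNA of nuclear speckles and the next gene along the chromosome with peaks, was laid out in a like way. Its 126 peaks covered 84.1% of 7.059 kb at 17.8 peaks per kb. Among the 43 genes with at least 10 peaks, these 2 had the most peaks per kb of genomic span, where the median gene had 3.01. Spans ran from the first to the last peak. Those of the other genes can include introns and leave out transcript beyond the outer peaks, so their figures are not densities of the whole transcript.

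The level of Ago2 CLIP was highest towards the 5′ end of NEAT1. The median log average was −7.00 over the 65 peaks, with a range of −8.48 to −5.66. It was −6.60 over 9 peaks of the first 500 nt, −6.40 over the 7 peaks between 500 and 1000 nt and −6.65 over the 9 peaks between 1000 and 1500 nt. From there it was lower, with −7.29 over the 12 peaks up to 2000 nt, −7.11 over the 8 peaks up to 2500 nt, −7.34 over the 9 peaks up to 3000 nt and −7.60 over the 7 peaks up to 3500 nt. The last 4 peaks had a median of −7.45. Spearman's rho of log average against distance was −0.42 over the 65 peaks, and −0.14 over the 26 of them at or above the median log average of all peaks in the table. Overlapping peaks can share reads, so these are not independent points.

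The 5 highest log averages all lay in the first 1736 nt, and each of these peaks had a log ratio below 0. Peak 22, counted from the 5′ end, at 65191497 to 65191646, led in the authors' deposited table with −5.66, and its log ratio was −0.57. Peak 12, at 65190860 to 65191020, followed with −5.68 and −0.43 in the authors' deposited table. For peak 29, at 65191932 to 65192016, the authors' deposited table lists −5.74 and −0.32. These are long peaks, of 149, 160 and 84 nt. Peak 5, at 65190517 to 65190567, had −5.78 and −0.30, and peak 10, at 65190740 to 65190857, had −5.86 and −0.07, in the authors' deposited table. The lowest log average belonged to peak 60, at 65193716 to 65193748, for which the authors' deposited table lists −8.48 and 0.22. It lies in the 3′ part of the covered stretch, where peak 56, at 65193488 to 65193543, still stood at −5.96, with −0.01 as its ratio, in the authors' deposited table. Peak 56 was chosen after its values were seen. High peaks were thus present near the 3′ end too, among many low ones.

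**Figure D1:**
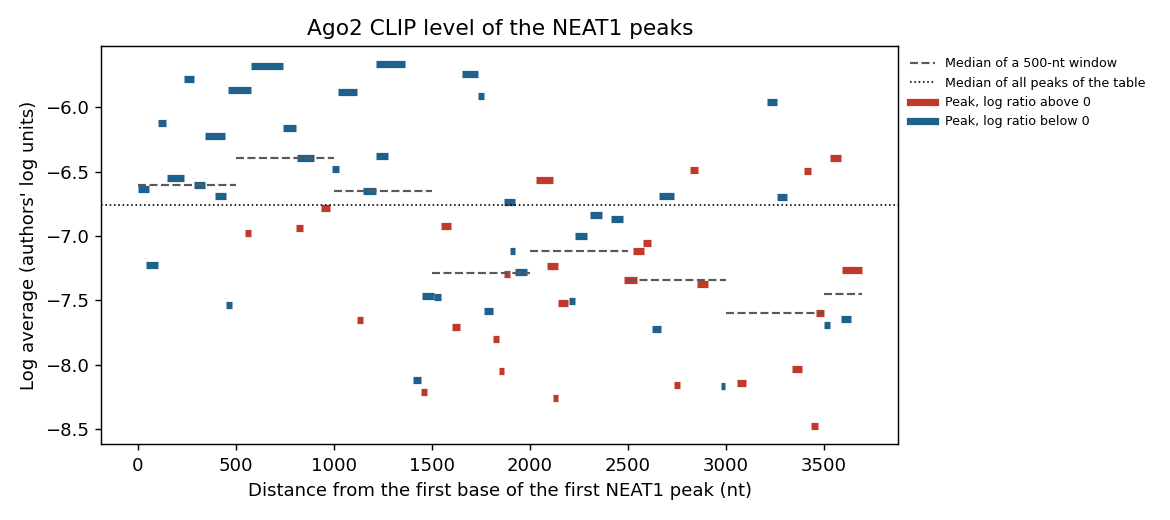
Log average of each NEAT1 peak, in the authors' log units, against its distance in nt from the first base of the first peak. Each bar is 1 peak drawn to its length, red where its log ratio is above 0 and blue where below; dashed lines are medians of 500-nt windows and the dotted line is the median of all 4718 peaks. The window medians are −6.60, −6.40 and −6.65 in the first 3 windows and lie between −7.60 and −7.11 in the later ones.

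The log ratios of NEAT1 were centred close to 0. Their median was −0.05 (exact order-statistic 95% interval −0.22 to 0.06, over peaks of this table and not over cultures), against 0.15 over all 4718 peaks. Of the 65 peaks, 38 (58.5%) lay below 0, where 40.9% of all peaks did, and 27 lay above 0, where 59.1% of all peaks did. High log ratios were the rarer ones in NEAT1. Only 1 peak exceeded a log ratio of 1, where 11.3% of all peaks had one, and 0 peaks lay below −1, where 4.22% of all had one. Values above 0.5 were found in 10 peaks (15.4%), against 30.6% of all peaks. Values below −0.5 were found in 10 peaks (15.4%), near the 17.0% of all peaks. The SD over the NEAT1 peaks was 0.45, the third lowest of the 43 genes with at least 10 peaks, whose median SD was 0.63.

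The 5 highest log ratios were those of weak and mostly short peaks. Peak 61, at 65193738 to 65193779, reached 1.02 in the authors' deposited table at a log average of −7.60. Peak 51, at 65193018 to 65193044, had 0.92 in the authors' deposited table at a log average of −8.16. Peak 46, at 65192760 to 65192825, had 0.83 in the authors' deposited table at −7.34. Peak 32, at 65192091 to 65192121, had 0.77 in the authors' deposited table, and peak 28, at 65191882 to 65191922, had 0.72. Each of these 5 peaks had a log average below the NEAT1 median, and they were 26 to 65 nt long.

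The 5 lowest log ratios came from peaks of more varied level. Peak 18, at 65191303 to 65191398, had the lowest log ratio in the authors' deposited table, −0.84, at a log average of −5.89, the sixth highest of NEAT1. Peak 9, at 65190729 to 65190762, had −0.70 in the authors' deposited table at a log average of −7.53. Peak 62, at 65193780 to 65193809, had −0.66 in the authors' deposited table. It begins 1 nt after the end of peak 61, which had the highest log ratio of NEAT1. Peak 37, at 65192206 to 65192266, had −0.63 in the authors' deposited table, and so had peak 1, at 65190280 to 65190337, the first of the RNA.

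Log ratios below 0 were most frequent at the 5′ end. The first 10 peaks, which cover 577 nt, all lay below 0, between −0.70 and −0.05, and no other run of peaks on 1 side of 0 was longer than 4. With limits chosen after the values were seen, 20 of 25 peaks in the first 1500 nt lay below 0, 11 of 20 peaks between 1500 and 2500 nt, and 7 of 20 peaks beyond 2500 nt, beside the 40.9% of all peaks. The medians of these 3 stretches were −0.11, −0.07 and 0.16. By windows of 500 nt, the median log ratio was −0.30 in the first, lay between −0.14 and −0.0022 in the next 4, and was 0.25 and 0.15 in the 2 that follow. In the last window, 4 peaks had a median of −0.04, and the last peak of the RNA, peak 65 at 65193872 to 65193975, stood at 0.44 in the authors' deposited table. Spearman's rho of log ratio against distance was 0.30 over the 65 peaks. It was 0.17 without the peaks of the first 500 nt and 0.15 when the log average was held constant.

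**Figure D2:**
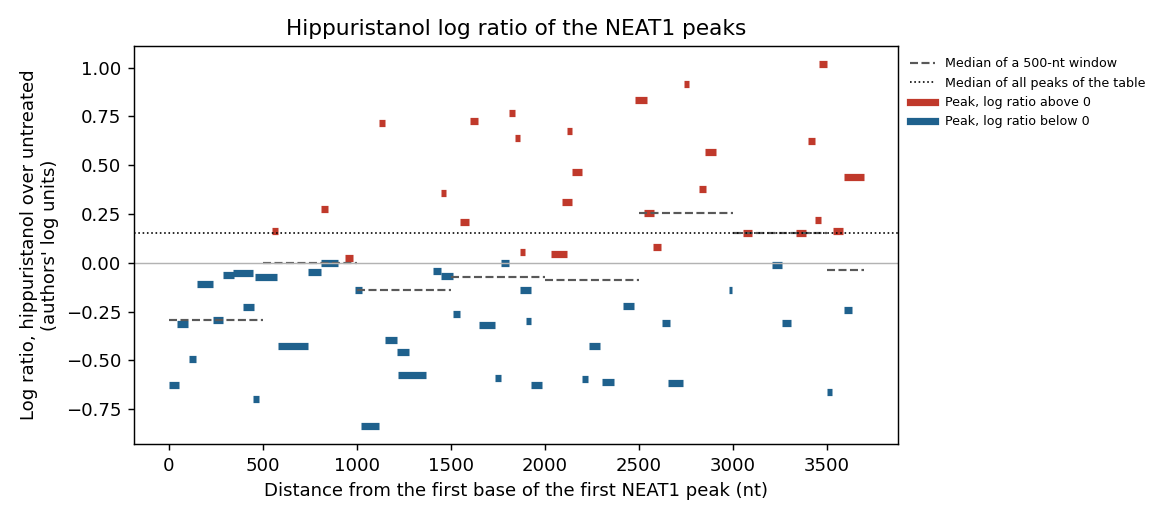
Log ratio of hippuristanol over untreated for each NEAT1 peak, in the authors' log units, against distance in nt from the first base of the first peak. Bars, colours and lines are as in the plot of log averages along the RNA, and the grey line marks 0. The first 10 bars are all below 0, and bars above and below 0 alternate from there to the end.

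In NEAT1, peaks with higher log averages had lower log ratios. Spearman's rho between the log average and the log ratio was −0.43 over the 65 peaks, and Pearson's r was −0.45. Of the 13 peaks with the highest log averages 12 lay below 0, with a median log ratio of −0.32. Of the 13 peaks with the lowest log averages 4 lay below 0, with a median of 0.22. Among the 26 NEAT1 peaks at or above the median log average of all peaks in the table, 22 lay below 0. Over all 4718 peaks the log average and the log ratio were almost unrelated, with rho of −0.03, and 40.9% lay below 0.

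Position and length moved with the level. Spearman's rho of length against log average was 0.61 over the NEAT1 peaks and 0.38 over those of MALAT1. Among the 43 genes with at least 10 peaks it ran from −0.41 in CANX to 0.72 in ADAMTS5. Over all peaks, pooled across genes, it was −0.09. The 11 NEAT1 peaks of at least 80 nt had a median log average of −6.22, and 9 of them lay below 0 in log ratio. The 19 peaks under 40 nt had a median log average of −7.53, and 8 of them lay below 0. The rho between log average and log ratio was −0.35 with position held constant and −0.32 with length held constant. Within the 26 peaks at or above the median log average of all peaks it was −0.15. Both measures come from the same libraries, and counting error, which would be larger for weak peaks, is not in the table. Its part in the relation was not tested.

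**Figure D3:**
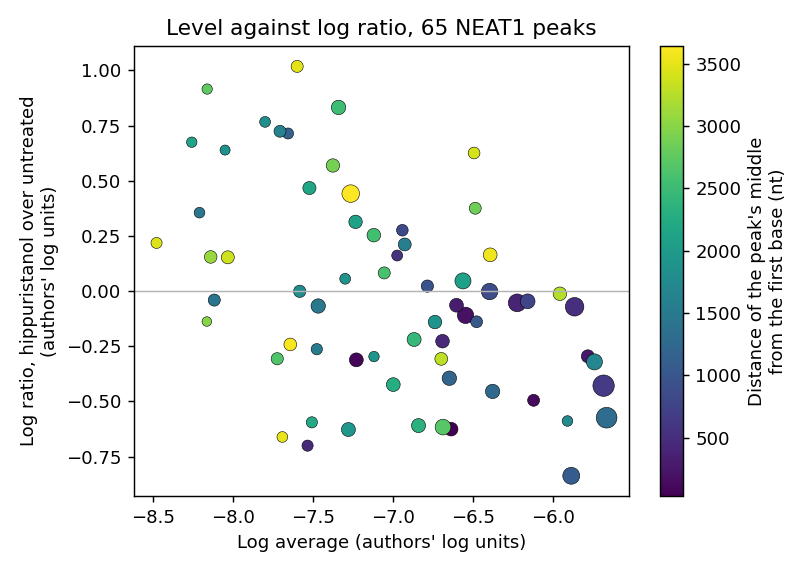
Log ratio of hippuristanol over untreated against log average, both in the authors' log units, for the 65 NEAT1 peaks. Each point is 1 peak, its area grows with the peak's length and its colour gives the distance in nt from the first base. Points at the right, many of them long peaks of the 5′ part, lie mostly below 0, and points at the left, mostly short peaks, lie mostly above it.

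The relation of level and log ratio was set beside that in other genes with many peaks. Among the 43 genes with at least 10 peaks, rho between log average and log ratio ran from −0.58 to 0.60 with a median of 0.05, and 20 genes were below 0. NEAT1 had the second lowest value, after DYNLL2, a dynein light chain, which had −0.58 over 10 peaks. With peak length held constant, NEAT1, at −0.32, was the fourth lowest, after DYNLL2, PPP1R15B and NUCKS1. In MALAT1 rho was −0.23 over 126 peaks. MALAT1 had no slope of level along the RNA, with rho of 0.07 between log average and distance, and 0.08 between log ratio and distance. The difference between the 2 RNAs was not tested.

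Overlapping NEAT1 peaks had more alike log ratios than separate neighbours. Over 24 overlapping pairs Pearson's r of the log ratios was 0.43 and the median absolute difference 0.30. Over 40 pairs of neighbours that do not overlap r was −0.03 and the median difference 0.41, close to the 0.45 of the 1113 pairs at least 1000 nt apart. Signs were the same in 17 of the overlapping pairs and in 20 of the separate neighbours. MALAT1 gave r of 0.51 over 37 overlapping pairs and 0.08 over 88 separate neighbours. Overlapping peaks can share reads.

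By the spread of its log ratios, the gene most like NEAT1 was MALAT1. Likeness was the Euclidean distance over 5 percentiles of the log ratio, the median among them, across the 43 genes. MALAT1 was nearest at 0.11, with a median log ratio of −0.11 against −0.05. Next came TXNIP, an inhibitor of thioredoxin, at 0.32 with a median of −0.16 over 11 peaks. CCND1, which encodes cyclin D1, followed at 0.33 with a median of −0.09 over 18 peaks. The middle of the MALAT1 range, from the 25th percentile at −0.40 to the 75th at 0.22, overlapped that of NEAT1, from −0.31 to 0.25. NEAT1 minus MALAT1 was 0.05 in medians, and −0.05 when overlapping peaks were joined, so which of them lies lower depended on that choice. The log average of MALAT1 peaks was lower, with a median of −9.47, and 0 of its peaks reached the median of all peaks. How the log average was normalized is not given, so this gap between RNAs cannot be read as a gap in binding.

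**Figure D4:**
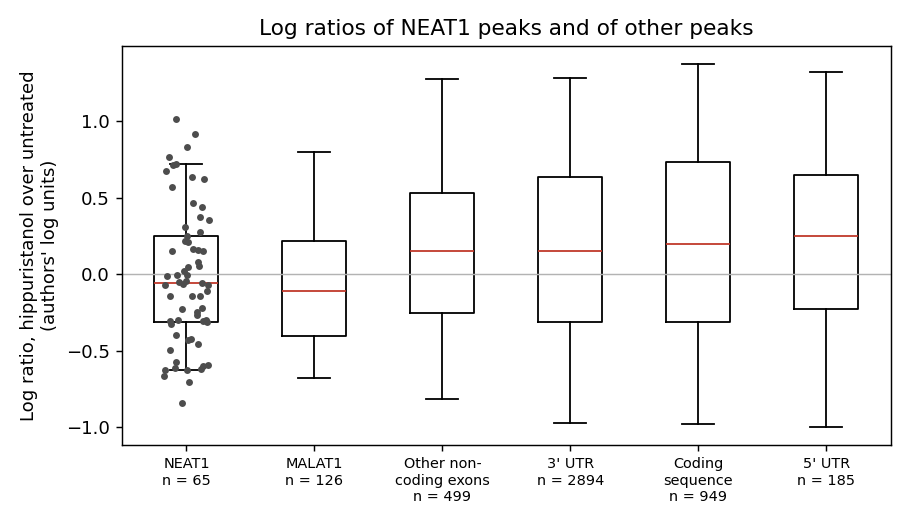
Log ratio of hippuristanol over untreated, in the authors' log units, for NEAT1, MALAT1, the other non-coding exons, 3′ UTRs, coding sequence and 5′ UTRs. Peaks of XIST weigh heavily among the other non-coding exons. Boxes span the 25th to 75th percentiles with the median in red, whiskers the 5th to 95th, and dots are the 65 NEAT1 peaks, spread sideways for sight. The medians of NEAT1 and MALAT1, −0.05 and −0.11, lie below 0 and those of the other sets above it, from 0.15 to 0.25.

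Other non-coding RNAs were compared by the median of each gene's peaks. Of 24 listed RNAs, 11 had peaks, and 10 of these had a gene median below 0.17, the median of all genes, where 1106 of the 2213 genes do. A gene median below 0 was found in 8 of the 11, against 39.5% of all genes. The list does not hold every non-coding RNA: XIST, the RNA of X inactivation, is not on it and had a median of 0.16 over 296 peaks. Over all 499 peaks in non-coding exons of genes other than NEAT1 and MALAT1, the median was 0.15 and 38.9% lay below 0, against 40.9% of all peaks. XIST, with its 296 peaks, weighs heavily in this set, so the set is not an even picture of non-coding RNAs. Ordered from the lowest, SNHG12, a host gene of small nucleolar RNAs, stood at −1.24, TUG1, a long RNA with nuclear and cytoplasmic pools, at −1.15, its fellow host gene SNHG16 at −0.89 and OIP5-AS1 at −0.72. LINC00657, which binds Pumilio proteins, followed at −0.22, SNHG7 at −0.19, MALAT1 at −0.11 and RMRP, the RNA of the RNase MRP enzyme, at −0.09. NEAT1 at −0.05 came next, below SNHG15 at 0.09, the telomerase RNA TERC at 0.12 and RPPH1, the RNA of RNase P, at 0.48. SNHG12, SNHG16, OIP5-AS1 and TERC had 1 peak each. No spread over cultures is in the table, so whether neighbours in this order differ could not be tested.

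The genes of paraspeckle proteins had no common direction. Of 40 listed genes 18 had peaks, and the 1 peak of CIRBP has the class of non-coding exon. Of these 8 had a gene median above 0.17, the median of all genes, and 10 below it, where 1106 of the 2213 genes lie on each side. A gene median above 0 was found in 9 of the 18, against 60.5% of all genes. The median of the 18 was 0.05. SFPQ, a core protein that binds NEAT1, had a gene median of −0.26 over 7 peaks, from −1.03 to 0.66. NONO and PSPC1, the relatives of SFPQ in the core, had no peak in the table. The highest gene medians were those of EWSR1, an RNA-binding protein, at 0.91 over 2 peaks, and FAM98A at 0.57 over 2 peaks. HNRNPH3 followed at 0.54, with 2 peaks at −0.11 and 1.19. RBM12 had 0.53 over 5 peaks, from −1.26 to 0.84. The lowest were CPSF6 at −0.81 over 2 peaks and CPSF7 at −0.57, subunits of the cleavage factor that acts in choosing poly(A) sites, then DAZAP1 at −0.56 and TARDBP, which encodes TDP-43, at −0.38. The values of DAZAP1 and CPSF7 rest on 1 peak each.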

How the data were processed

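Per the labels, 12 Ago2 CLIP and 4 RNA-seq libraries were made from 4 cultures of 293S cells. Per the file header, the authors deposited for each peak 2 normalized scores, an average over both treatments and a ratio (hippuristanol over untreated), each on a log scale. No label or header gives the log base, the kind of normalization, the peak caller or the pooling. The submitters' processing notes name hg19 and the tools TopHat, DESeq and Bowtie (0.12.8), without their roles. Whether starts count from 0 or 1 is not given. Length was taken as end minus start, and peaks overlapped where a start lay below an earlier end.

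Medians, counts and rank correlations were computed with Python 3.11.15, pandas 2.3.3 and SciPy 1.17.1, after 50 repeated rows of identical values outside NEAT1 and MALAT1 were dropped, and were checked on simulated data. Correlations describe peaks and carry no p. Seed matches came from GENCODE 29 transcripts and RefSeq microRNAs.

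Named peaks were the 5 highest by log average, the 5 highest and 5 lowest by log ratio, and the first and last. Peak 60, the lowest by log average, was also named, and so was peak 56, chosen after its values were seen. Named genes were the 3 nearest to NEAT1 over the percentiles, and, of the paraspeckle list, SFPQ, NONO, PSPC1 and the 4 highest and 4 lowest, and 1 further gene that the rule names is not reported here. Members, lists and cuts were chosen with earlier results of these data known, and the microRNA families after the table was seen.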

Additional observations from a re-analysis of the deposited data

How the results depend on the processing

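Counting every row and keeping only peaks of at least 20 nt left all 65 NEAT1 peaks in place. The NEAT1 median log ratio stayed below 0 under each alternative run, between −0.21 relative to the median of all peaks and −0.0017 without the first 500 nt, and its 95% interval includes 0. Counting every row, keeping peaks of at least 20 nt and subtracting the median of all peaks could not have brought that median above 0. NEAT1 minus MALAT1 reversed to −0.053 when overlapping peaks were joined, and could not be computed for peaks at or above the median log average, where MALAT1 has 0. The rise of the log ratio along the RNA weakened to 0.17 without the first 500 nt and to 0.15 with the log average held constant. Among the 26 peaks at or above the median log average, the fall of log average along the RNA was −0.14 and the relation of log average to log ratio was −0.15. Over all 65 peaks that relation was −0.32 with length held constant. The cause of these shifts was not tested. The settings relative to the median of all peaks, those without the first 500 nt and those that hold a measure constant, and all of the relation of log average to log ratio, were chosen after seeing the data.

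The planned difference between the short-isoform region and the long-only region has no value, since no peak lay beyond 3.7 kb, nor beyond 4.5 kb. Split at 3 kb, 54 peaks before minus 11 after gave −0.22 in log ratio and 0.64 in log average. Both sides of that cut lie in the stretch taken as the short isoform, so these values do not compare isoforms. No paired analysis was possible because the table gives no value per library. Leaving out a culture or an antibody was likewise not run for that reason, and depth per library is unknown.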
